A study of Mus musculus with 59 samples.

Results

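Embryonic stem cells (ESC) were set against induced pluripotent stem cells (iPSC) reprogrammed from mouse embryonic fibroblasts (MEFs). By their titles and origin labels, 10 of the 59 arrays of the series belonged to this comparison: the ESC clones ESC-1 to ESC-4 and the iPSC clones iPSC-1 to iPSC-6, with 1 Affymetrix array per clone. The ESC carry the label KH2 ESC, targeted. The 6 iPSC clones share the origin MEFs, chimera 1, a mouse made with ESCs that held an inducible cassette that encodes Oct4, Sox2, Klf4 and myc. The series title calls the 2 kinds of cell genetically matched, so the comparison asks what differs between pluripotent lines of like genotype that came from an embryo or from a reprogrammed fibroblast. All 10 clones grew on irradiated MEFs in ESC medium with 15% FBS and LIF, and were preplated for 45 minutes against the MEFs before RNA was taken. The labels give neither the ages or sexes of the animals nor whether any clones were derived or processed together, and the iPSC come from 1 chimera, so p-values measure only the spread between these clones.

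Values are the deposited log2 signals of 22626 probe sets (sets of probes for 1 transcript or a few), centred near 0 on each array, so that a difference of 1 is a 2-fold change. Of these, 18003 were paired with 1 gene, 287 with several and 4336 with none, and all were used. Differences are iPSC minus ESC, and adjusted p-values are from limma with Benjamini-Hochberg adjustment over all probe sets, with a threshold of 0.05. The factors that mark pluripotent cells were high in every clone, with Pou5f1 at 4.71 to 5.07, Sox2 at 4.17 to 4.54 and Nanog at 4.76 to 5.24.

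The arrays did not sort by group. Over all probe sets ESC-2 and ESC-3 were the closest pair (r = 0.9987), while the array closest to ESC-4 was iPSC-6 (r = 0.9973) and the reverse. By whichever of ESC-2, ESC-3 and ESC-4 they resembled most, iPSC-1, iPSC-2 and iPSC-3 went with ESC-2 and ESC-3, and iPSC-5 and iPSC-6 with ESC-4. The array of iPSC-4 was nearly tied (r = 0.9941 to ESC-4 and 0.9940 to ESC-3) and was placed with ESC-4. ESC-1 stood apart from all of them, at r between 0.984 and 0.988. The labels give no batch, so these 2 sets of like arrays are a pattern in the values, and differences within each set are given beside the main results. Markers of fibroblasts and feeder cells moved with the split: the mean of 66 probe sets of 39 such genes was 1.13 in ESC-1, 0.62 and 0.61 in ESC-2 and ESC-3, and 0.14 in ESC-4. In the iPSC it was 1.06, 1.16 and 0.93 in iPSC-1 to iPSC-3 and 0.45, 0.32 and 0.10 in iPSC-4 to iPSC-6. The median difference over the list was 0.08 with all clones (over all probe sets it was -0.00075). It was 0.19 without ESC-1, -0.01 without iPSC-2 and 0.11 without both, so its sign depended on single clones. Inside the sets it was 0.40 for iPSC-1 to iPSC-3 against ESC-2 and ESC-3 and 0.13 for iPSC-4 to iPSC-6 against ESC-4. The list means of the groups overlapped, with iPSC-6 below ESC-4 (0.10 against 0.14), and the part of the list in the results below was not tested. In such bulk samples, fewer cells of a type and less RNA per cell cannot be told apart.

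**Figure D1:**
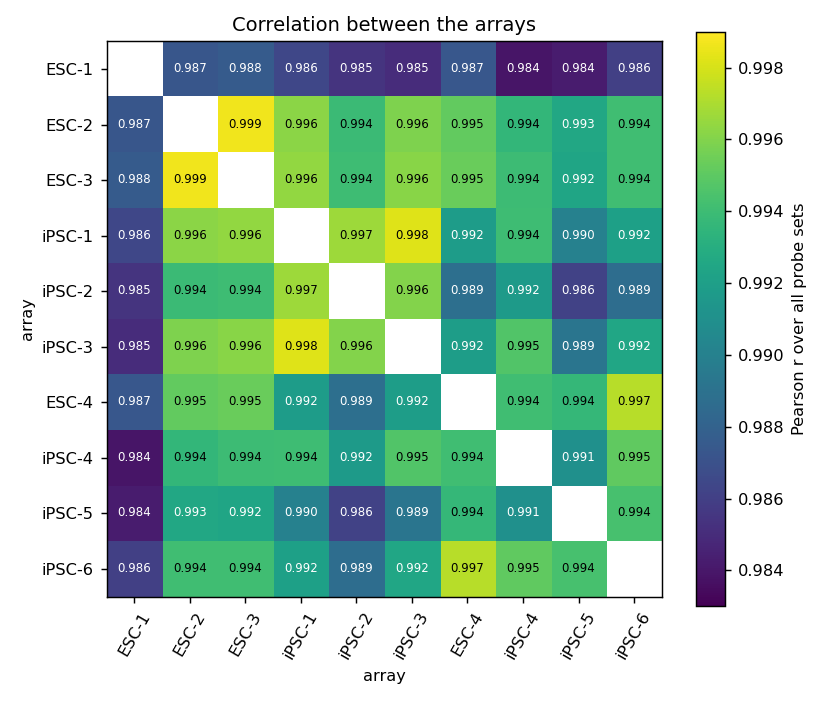
Pearson correlation between the 10 arrays over all 22626 probe sets, with arrays on both axes and r given in each square. ESC-1 is at 0.988 or below with every other array, ESC-2 and ESC-3 sit with iPSC-1 to iPSC-3, and ESC-4 is closest to iPSC-6.

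The genes with the largest differences lie in the imprinted Dlk1-Dio3 region of chromosome 12. In this region the copy inherited from the mother makes a run of noncoding RNAs that includes Meg3 (also called Gtl2), Rian and Mirg with many small RNAs, and the copy from the father makes the protein-coding genes Dlk1, Rtl1 and Dio3. Methylation of an intergenic control region, normally present on the paternal copy alone, sets which copy is read. The windows around the RefSeq starts of Meg3 and Rian (GRCm38.p6, plus strand, 250 bases before to 50 after the start) are shown because these 2 genes hold 5 of the 8 probe sets that passed the test. Capitals mark the dinucleotide CG, the site of DNA methylation in mammals.
Meg3 first start, chr12:109540746-109541045: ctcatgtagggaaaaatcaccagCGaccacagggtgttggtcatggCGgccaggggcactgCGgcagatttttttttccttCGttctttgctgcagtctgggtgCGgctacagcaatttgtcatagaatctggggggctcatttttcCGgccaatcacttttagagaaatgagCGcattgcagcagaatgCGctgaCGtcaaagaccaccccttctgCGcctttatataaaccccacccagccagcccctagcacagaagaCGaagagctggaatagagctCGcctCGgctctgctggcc
Meg3 second start, chr12:109545148-109545447: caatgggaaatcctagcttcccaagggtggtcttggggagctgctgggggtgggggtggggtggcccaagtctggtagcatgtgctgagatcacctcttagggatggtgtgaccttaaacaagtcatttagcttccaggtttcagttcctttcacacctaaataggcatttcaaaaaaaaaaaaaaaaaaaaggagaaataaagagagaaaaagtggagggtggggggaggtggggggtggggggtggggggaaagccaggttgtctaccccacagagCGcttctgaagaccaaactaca
Rian, chr12:109603695-109603994: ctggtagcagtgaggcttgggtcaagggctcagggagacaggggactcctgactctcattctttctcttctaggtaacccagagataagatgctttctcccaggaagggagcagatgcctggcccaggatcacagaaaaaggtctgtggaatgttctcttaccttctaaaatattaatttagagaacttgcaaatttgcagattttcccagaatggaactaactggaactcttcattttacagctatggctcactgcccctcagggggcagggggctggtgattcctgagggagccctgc
The first Meg3 window held 13 CG, and 37.9% of all 32817 promoter windows of that length held at least as many. The second held 1 CG, and 14.1% of windows had 1 or none. The Rian window held 0 CG, as did 5.43% of all windows. The letters TGCCGC, searched on both strands, occurred once in the first Meg3 window, on the minus strand, and in neither of the other two, against 11.6% of all windows. The arrays did not measure methylation, and the matches are descriptions of the sequence.

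Meg3 and Rian fell in the iPSC. All 7 of their probe sets read lower in every iPSC clone than in every ESC clone, and 5 of the 7 passed the test, against 0.0354% of all probe sets (8 of 22626). Meg3 1436713_s_at read 1.45, 0.82, 0.99 and 0.91 in ESC-1 to ESC-4 and between -1.49 (iPSC-6) and -0.36 (iPSC-2) in the iPSC, with a median of -0.73. The lowest ESC value and the highest iPSC value were 1.17 apart, and the means differed by -1.82 ± 0.19 (SE), a 3.53-fold lower level (adjusted p = 0.0223). Meg3 1426758_s_at read 2.97, 2.80, 2.77 and 2.30 in the ESC and 0.74, 0.72, 0.80, 1.14, -0.05 and -0.37 in iPSC-1 to iPSC-6. This was a 4.63-fold fall (-2.21 ± 0.27, adjusted p = 0.0223), and here iPSC-5 and iPSC-6 lay below the other 4 iPSC clones.

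The 3 Rian probe sets showed the same separation at larger size. Rian 1428055_at read 2.06, 0.16, 0.40 and 1.04 in the ESC and -2.29, -2.06, -2.37, -1.13, -2.98 and -2.26 in the iPSC, an 8.54-fold fall (-3.09 ± 0.38, adjusted p = 0.0223). The ESC were less even here than the iPSC (SD 0.85 against 0.60), with ESC-1 highest. Rian 1427580_a_at read -0.02, -0.06, 0.13 and 0.86 in the ESC and from -3.52 (iPSC-6) to -1.49 (iPSC-4) in the iPSC with a median of -2.89, a 7.95-fold fall (-2.99 ± 0.35, adjusted p = 0.0223). Rian 1452899_at was nearly level across the ESC, at 3.49, 3.45, 3.52 and 3.71, and ranged from 0.22 (iPSC-6) to 2.31 (iPSC-4) in the iPSC with a median of 1.09. It fell 5.20-fold (-2.38 ± 0.31, adjusted p = 0.0270).

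The other 2 Meg3 probe sets had groups just as separate but did not pass. Meg3 1452183_a_at read 3.38, 2.81, 2.95 and 2.74 in the ESC and -0.46 to 1.35 in the iPSC, a difference of -2.32 ± 0.34 (adjusted p = 0.0556). Meg3 1436057_at read 1.07, 0.22, -0.03 and 0.43 in the ESC and -1.29 to -0.50 in the iPSC, a difference of -1.28 ± 0.20 (adjusted p = 0.0565). An alternative chosen after seeing the data, with the sets of like arrays as a block and without ESC-1, called 76 probe sets. Both Meg3 probe sets were among them (adjusted p = 0.0370 and 0.0343). The block was drawn from the same values that were tested, so these p-values lend the 2 probe sets no support. The iPSC clones differed among themselves: iPSC-4 was the highest of the 6 in 6 of the 7 Meg3 and Rian probe sets, and iPSC-2 in the remaining one.

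A probe set without a gene name, 1439380_x_at, behaved like Meg3. It read 2.92, 2.65, 2.64 and 2.34 in the ESC and 0.35, 0.55, 0.34, 1.13, -0.74 and -0.77 in the iPSC, a 5.64-fold fall (-2.50 ± 0.33, adjusted p = 0.0270). Over all 59 arrays of the series its Pearson r with the 4 Meg3 probe sets was 0.828 to 0.982, a description across arrays of several origins. It is named here by its probe set alone.

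The Meg3 and Rian differences were present inside both sets of like arrays. For iPSC-1 to iPSC-3 against ESC-2 and ESC-3 the 7 differences had a median of -2.03, and for iPSC-4 to iPSC-6 against ESC-4 a median of -2.49. Without ESC-1 they had a median of -2.18, without iPSC-2 of -2.42 and without both of -2.29. The calls did depend on which clones were in the fit. No probe set of any gene passed when ESC-2, ESC-3, ESC-4, iPSC-1, iPSC-3 or iPSC-5 was left out, with smallest adjusted p-values between 0.0522 and 0.0840, while the 7 differences remained between -3.35 and -1.20 in those 6 fits.

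**Figure D2:**
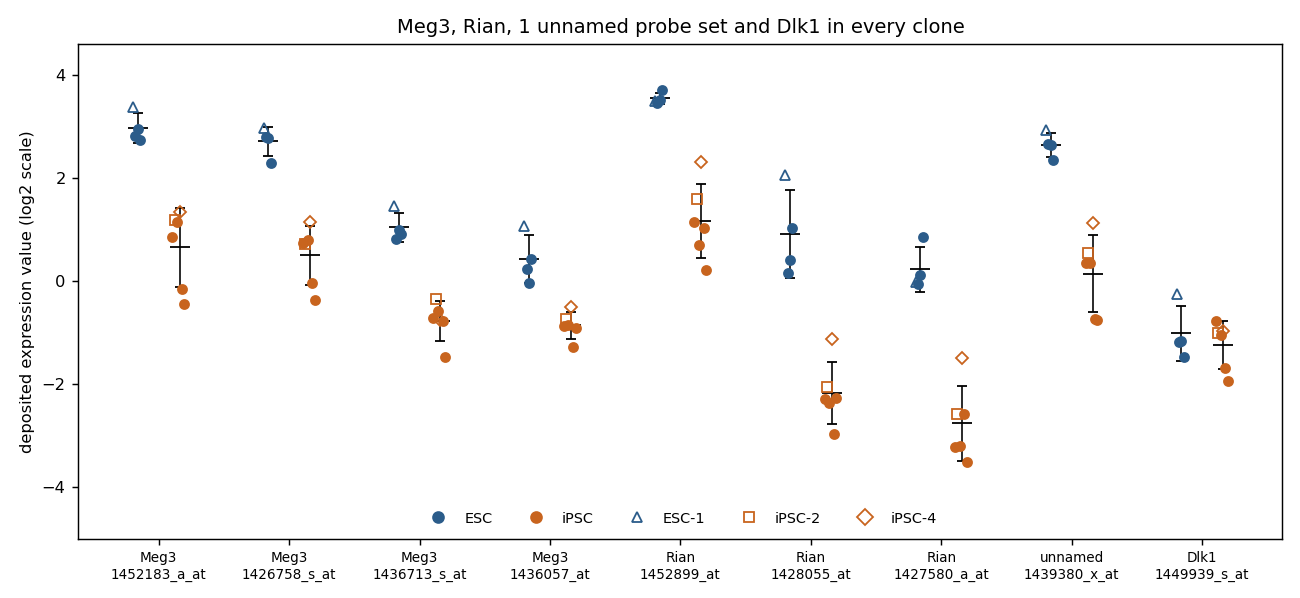
Deposited log2 value (vertical axis) of each clone for the 4 Meg3 and 3 Rian probe sets, 1439380_x_at and Dlk1, with ESC in blue and iPSC in orange. Bars are the mean ± SD of 4 ESC or 6 iPSC clones; the groups are apart in the first 8 probe sets and overlap for Dlk1, where ESC-1 is highest at -0.25.

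Other genes of the region gave no such picture. Dlk1, a transmembrane inhibitor of differentiation read from the paternal copy and the only measured gene of that class, read -0.25, -1.18, -1.16 and -1.48 in the ESC and -1.94 to -0.78 in the iPSC. The groups overlapped, and the difference of -0.22 ± 0.27 (adjusted p = 0.862) became 0.04 without ESC-1. Of 28 probe sets of 11 genes that flank the region, none passed and none had separate groups, and their median difference was -0.05 against -0.00075 over all probe sets. Among 65 probe sets of 41 other imprinted genes, none passed, 1 was separate in each direction and the median difference was -0.01. H19 was not among the genes matched and is not analysed here. Impact, a regulator of translation under amino acid shortage, had values of 4.17, 3.86, 3.89 and 3.89 in the ESC and 3.50 to 3.84 in the iPSC (-0.33 ± 0.09, adjusted p = 0.337). The amino acid transporter gene Slc38a4 had values of 1.85, 2.09, 2.11 and 2.00 in the ESC and 2.13 to 2.55 in the iPSC (0.31 ± 0.09, adjusted p = 0.400).

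In the other direction, 2 probe sets rose in the iPSC, both by less than 2-fold but with little spread. Psrc1, which encodes a microtubule-binding protein of the mitotic spindle, read 0.39, 0.46, 0.33 and 0.40 in the ESC and 1.16, 0.82, 1.18, 1.10, 0.94 and 0.96 in the iPSC. The rise was 1.55-fold (0.63 ± 0.08, adjusted p = 0.0270). The unnamed 1426431_at read -0.50, -0.28, -0.24 and -0.33 in the ESC and 0.27, 0.17, 0.30, 0.27, 0.20 and 0.17 in the iPSC, a 1.49-fold rise (0.57 ± 0.07, adjusted p = 0.0223). The SD over the 6 iPSC clones was 0.06 for this probe set and 0.14 for Psrc1. Within the 2 sets of like arrays the Psrc1 difference was 0.66 and 0.60, and that of 1426431_at 0.51 and 0.55. In 42 iPSC clones of other origins in the series, 1426431_at ranged from -1.08 to 0.32 and Psrc1 from -0.12 to 0.78, so that both ranges also held the ESC levels.

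These 8 probe sets included, 507 (2.24%) had ESC and iPSC values that did not overlap, 285 with the iPSC higher (1.26% of all probe sets) and 222 with the iPSC lower (0.981%). Of these 507, 86 had no gene name, and the median size of the 507 differences was 0.30. Unadjusted p-values under 0.05 were found for 1051 probe sets with the iPSC higher and 889 with the iPSC lower. Only 14 probe sets of any kind had means 2-fold or more apart, 10 of them lower in the iPSC. The first 8 of these 10 were the Meg3 and Rian probe sets and 1439380_x_at, and the other 2 had groups that overlapped. Ina, which encodes a neuronal intermediate filament, ranged from -0.67 to 0.91 in the ESC and from -2.04 to 0.67 in the iPSC (-1.06 ± 0.52, adjusted p = 0.604). Rnf157, a ubiquitin ligase gene, ranged from -1.40 to -0.27 in the ESC and from -2.37 to -0.996 in the iPSC (-1.02 ± 0.29, adjusted p = 0.383).

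The 4 probe sets that were 2-fold or more higher in the iPSC did not pass either. Cwh43, a gene for remodelling of lipid anchors, read -3.19, -2.98, -2.77 and -2.57 in the ESC and -2.39 (iPSC-4) to -1.55 (iPSC-2) in the iPSC, low on the array in both groups (1.02 ± 0.17, adjusted p = 0.0808). The unnamed 1421514_a_at had separate groups, with ESC between -2.67 and -1.87 and iPSC between -1.55 and 0.42, the highest being iPSC-2 (1.42 ± 0.37, adjusted p = 0.336). The unnamed 1420357_s_at owed its difference of 1.58 to iPSC-2, at 2.61, and iPSC-4, at -0.59. The other 4 iPSC clones were between -2.69 and -1.87 and the ESC between -2.91 and -2.60. The unnamed 1423506_a_at differed by 3.48 between iPSC-1 to iPSC-3 and their like arrays ESC-2 and ESC-3, but by -0.54 between iPSC-4 to iPSC-6 and ESC-4. Its ESC values alone ran from -2.79 to 1.05 (difference 1.24 ± 0.73, adjusted p = 0.667).

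**Figure D3:**
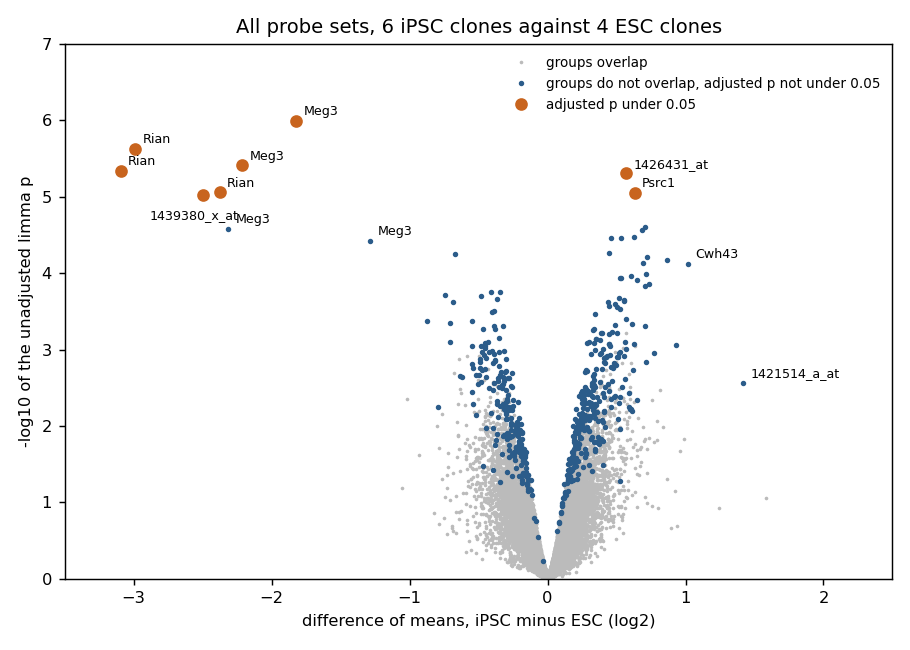
Difference of means on the log2 scale (horizontal axis) against -log10 of the unadjusted limma p (vertical axis) for 22626 probe sets. Orange points are the 8 that passed, 6 lower and 2 higher in the iPSC, and blue points are other probe sets whose groups do not overlap.

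Several genes with separate groups came close to the threshold on the higher side. Ddit4l, related to the mTOR inhibitor Ddit4, was read by 2 probe sets. Ddit4l 1451751_at lay between -0.50 and -0.40 in the ESC and between 0.05 and 0.48 in the iPSC (0.70 ± 0.10, adjusted p = 0.0556), and Ddit4l 1439332_at between -0.08 and 0.00 and between 0.36 and 0.98 (0.72 ± 0.12, adjusted p = 0.104). The ESC were nearly level in both probe sets and the iPSC were spread, with no overlap. The peptidase-related gene Pm20d1 differed by 0.63 ± 0.10, the carboxypeptidase-like gene Cpxm1 by 0.53 ± 0.08 (both adjusted p = 0.0558), the phospholipase gene Plaat3 by 0.44 ± 0.07 and the peroxisomal thiolase gene Acaa1b by 0.86 ± 0.14. The aldo-keto reductase gene Akr1b10 differed by 0.70 ± 0.12, the cell adhesion gene Ncam1 by 0.60 ± 0.10 and the sarcoglycan gene Sgcb by 0.53 ± 0.09. Adjusted p-values of the last 5 were between 0.0755 and 0.105.

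On the lower side the next named genes were smaller in size than Meg3 and Rian. Esrp2, an epithelial splicing regulator, read 0.08, 0.07, -0.07 and -0.31 in the ESC and -0.92 to -0.51 in the iPSC (-0.67 ± 0.11, adjusted p = 0.0755). Zfp36l2, which promotes mRNA decay, read 3.43, 3.31, 3.42 and 3.39 and then 2.96 to 3.10 (-0.34 ± 0.06, adjusted p = 0.133). Pla2g7, a lipase that inactivates platelet-activating factor, differed by -0.74 ± 0.14, the polarity gene Lrrc1 by -0.48 ± 0.09 and the endosomal sorting gene Mvb12b by -0.37 ± 0.07. None of these passed. For Mvb12b the 6 iPSC clones lay close together, at -0.77 to -0.71, against -0.56 to -0.29 in the ESC.

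Unnamed probe sets held further differences of this size. On the higher side 1452880_at ran from 2.62 to 2.95 in the ESC and from 3.10 to 3.40 in the iPSC (0.45 ± 0.09, adjusted p = 0.150), and 1426584_a_at from 0.89 to 1.05 and from 1.34 to 2.05 (0.61 ± 0.13, adjusted p = 0.208). On the lower side 1420948_s_at ran from -0.73 to -0.14 and from -1.50 to -1.01 (-0.68 ± 0.13, adjusted p = 0.143), and 1450070_s_at differed by -0.41 ± 0.08 (adjusted p = 0.133). The groups of all 4 were separate, and none passed.

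Agreement between probe sets of 1 gene was rare outside Meg3 and Rian. Of 4150 genes with 2 or more probe sets, 6 had every one separate and higher in the iPSC (Akr1b10, Brdt, Ddit4l, Gbf1, Kif22 and Tmem141), and 5 separate and lower (Meg3, Rian, Luc7l3, Mob4 and Socs2). Of 1382 genes with 3 or more probe sets, Meg3 and Rian were the only ones.

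Targets of the tumour suppressor p53, which halts the cell cycle or starts cell death after DNA damage, were mostly higher in the iPSC, although none passed the test. Of 41 probe sets of 26 target genes, 36 (87.8%) had a difference above 0, against 49.8% of all probe sets, and the median difference was 0.30 against -0.00075 over all. Groups were separate and higher in 6 of the 41 (against 1.26% of all probe sets). An unadjusted limma p under 0.05 was found for 19 with the iPSC higher and 1 with the iPSC lower. Over all 22626 probe sets these counts were 1051 and 889, or 8.57% in both directions together. Mdm2, the ubiquitin ligase that degrades p53, read 1.68, 1.56, 1.64 and 1.55 in the ESC and 1.89 to 2.37 in the iPSC (0.55 ± 0.10, adjusted p = 0.143). The death receptor gene Fas read -1.48, -1.43, -1.39 and -1.40 and then -1.10 to -0.05, with iPSC-5 and iPSC-6 nearest to the ESC (0.93 ± 0.21, adjusted p = 0.245). The death receptor gene Tnfrsf10b differed by 0.70 ± 0.15 and cyclin G1 (Ccng1) by 0.51 ± 0.11. The DNA polymerase gene Polk differed by 0.54 ± 0.14 and the apoptosis gene Bbc3 by 0.33 ± 0.10. The groups of Polk and Bbc3 were barely apart, with gaps of 0.023 and 0.002. In 5 of the 41 the difference was not above 0. Gadd45a, a growth arrest gene, was the 1 of them with an unadjusted p under 0.05, at 4.18 to 4.38 in the ESC and 3.70 to 4.36 in the iPSC (-0.30 ± 0.11, adjusted p = 0.507).

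The mean of the p53 list was 1.64, 1.81, 1.79 and 1.63 in the ESC and 2.16, 2.07, 2.19, 1.97, 1.83 and 1.87 in the iPSC, so the lowest iPSC clone was close to the highest ESC clone. Its median difference was 0.29 for iPSC-1 to iPSC-3 against ESC-2 and ESC-3, and 0.21 for iPSC-4 to iPSC-6 against ESC-4. Without ESC-1 it was 0.26, without iPSC-2 0.27 and without both 0.26. The 3 iPSC clones with the highest p53 means also had the highest fibroblast means of the iPSC, whereas ESC-1, with a fibroblast mean of 1.13, had a p53 mean of 1.64. The part of fibroblasts in the p53 values was not tested. Other lists were one-sided too: the difference was above 0 in 10 of 11 probe sets of genes of the two-cell-like state (90.9%), in 43 of 55 of glycolysis and hypoxia (78.2%) and in 28 of 36 of germ cells (77.8%). It was above 0 in 10 of 42 of DNA methylation and Polycomb (23.8%) and in 8 of 29 of trophoblast (27.6%). A share far from 49.8% was thus not particular to the p53 list. Not all of these lists kept their median difference without ESC-1. It went from 0.09 to -0.002 for glycolysis and hypoxia and from -0.13 to -0.04 for trophoblast. For germ cells it went from 0.11 to 0.07 and for the two-cell-like state from 0.17 to 0.12. The two-cell-like median was -0.003 in the set with ESC-2 and ESC-3 and 0.11 in the set with ESC-4. That list was low on the array in every clone, with means of -3.15 to -2.43, and its 1 separate probe set was lower in the iPSC. Without ESC-1 the median for DNA methylation and Polycomb went from -0.07 to -0.10, and for the p53 list from 0.30 to 0.26.

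Of 36 probe sets of 30 germ cell genes, none passed and 4 were separate, all higher in the iPSC (against 1.26% of all probe sets). Dmrtb1, a transcription factor of male germ cells, read -0.36, -0.27, -0.03 and -0.01 in the ESC and 0.31 to 0.70 in the iPSC (0.69 ± 0.10, adjusted p = 0.0556). Ggnbp2, which binds the germ cell protein gametogenetin, read 2.68, 2.88, 2.88 and 2.80 and then 3.19 to 3.33 (0.46 ± 0.07, adjusted p = 0.0558). Brdt, a bromodomain protein of the testis, differed by 0.72 ± 0.12 in Brdt 1435502_a_at and by 0.42 ± 0.10 in Brdt 1450178_at (adjusted p = 0.0773 and 0.266). Piwil2, which binds small RNAs that silence transposons, overlapped between the groups, with the highest ESC value, 2.88, above the lowest iPSC value, 2.80 (0.54 ± 0.13, adjusted p = 0.266). The list as a whole overlapped: its mean was 0.14 to 0.40 in the ESC and 0.29 to 0.66 in the iPSC, and its median difference of 0.11 was -0.06 between iPSC-1 to iPSC-3 and ESC-2 and ESC-3, and 0.20 between iPSC-4 to iPSC-6 and ESC-4.

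Among 51 probe sets of 32 genes of naive pluripotency none passed, and 1 was separate in each direction (against 2.24% of all probe sets in both directions together). The difference was above 0 in 14 of the 51 (27.5%, against 49.8% of all probe sets), and the median difference was -0.12. It was -0.18 in the set with ESC-2 and ESC-3 and -0.05 in the set with ESC-4. Lin28a, which blocks maturation of the let-7 microRNAs, read 4.40, 4.28, 4.31 and 4.50 in the ESC and 3.97 to 4.24 in the iPSC (-0.31 ± 0.08, adjusted p = 0.297). The growth factor gene Fgf4 read -0.68, -0.45, -0.39 and -0.39 and then -0.38 to -0.12 (0.20 ± 0.08, adjusted p = 0.552). The 4 cassette factors did not separate the groups. The differences were 0.09 ± 0.08 for Pou5f1, -0.07 ± 0.09 for Sox2 and -0.28 ± 0.27 for Myc. For Klf4 1417394_at and 1417395_at they were -0.03 ± 0.11 and -0.06 ± 0.09. For Nanog, which is not in the cassette, the difference was -0.08 ± 0.09.

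**Figure D4:**
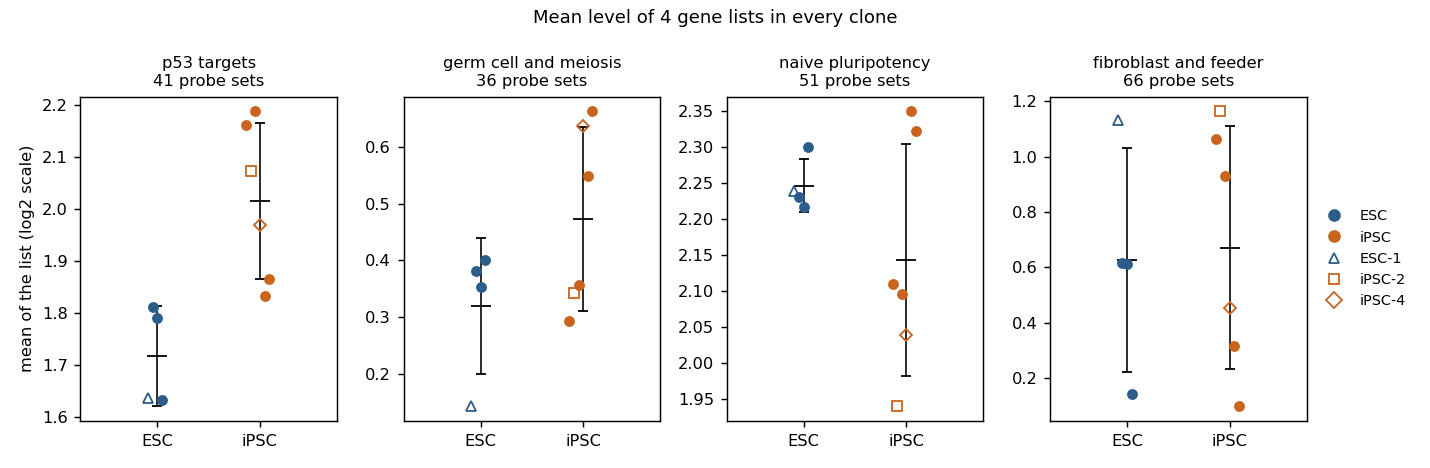
Mean log2 value of 4 gene lists in each clone (vertical axes, each with its own range), with ESC in blue, iPSC in orange and bars for the mean ± SD of 4 ESC or 6 iPSC clones. The p53 target means are 1.63 to 1.81 in the ESC and 1.83 to 2.19 in the iPSC, and the fibroblast and feeder means of the groups overlap, at 0.14 to 1.13 in the ESC and 0.10 to 1.16 in the iPSC.

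Separate probe sets of lineage and stress genes were counted beside the 2.24% of all probe sets, in lists too short to fix a share. They were 1 of 29 for trophoblast, 1 of 24 for mesoderm and streak and 1 of 11 for the two-cell-like state. The counts were 2 of 39 for amino acid and endoplasmic reticulum stress, 4 of 49 for proliferation and 1 of 66 for fibroblasts and feeders. None was separate among 42 for primitive endoderm, 25 for neuroectoderm, 31 for epiblast and priming and 35 for blood. The same held for 43 of interferon response and MHC and 26 of immediate early genes. The homeobox gene Rhox6, X-linked and active in placenta and germ cells, read 0.15, 0.73, 0.77 and 0.33 in the ESC and -0.47 to 0.12 in the iPSC (-0.71 ± 0.15, adjusted p = 0.205), the highest iPSC clone being iPSC-2. Its neighbour Rhox9 overlapped between the groups (-0.60 ± 0.17, adjusted p = 0.397). The somite gene Mesp2 differed by 0.43 ± 0.10 and Chac1, an enzyme of glutathione breakdown, by -0.48 ± 0.11. Herpud1 1448185_at, of protein degradation at the endoplasmic reticulum, differed by -0.28 ± 0.10. Of the cell cycle genes, cyclin D1 (Ccnd1 1417420_at) differed by -0.49 ± 0.12 and the mitotic kinase gene Plk1 by 0.29 ± 0.08. The groups of these 5 did not overlap and none passed. Of the fibroblast and feeder list, Pdgfrb was the 1 separate probe set, at -0.08 to 0.12 in the ESC and 0.17 to 0.67 in the iPSC (0.41 ± 0.12, adjusted p = 0.415). Its difference was 0.69 in the set with ESC-2 and ESC-3 and 0.06 in the set with ESC-4. In the 24 lists together, no member other than Meg3 and Rian passed.

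ESC-1 was the clone farthest from its own group. Its deviations from the mean of the other 3 ESC had an SD of 0.40 over all probe sets, and 336 probe sets were 2-fold or more higher and 260 lower. The corresponding SD was 0.20 for ESC-2 and ESC-3 and 0.25 for ESC-4. The matrix protease gene Mmp3 read 1.19 in ESC-1 and -1.90 to -1.83 in the other ESC, the protease inhibitor gene Tfpi2 -0.09 against -3.12 to -2.80, and the interferon-induced gene Usp18 0.62 against -2.45 to -1.84. Clca3a2 stood 3.17 above the mean of the others. On the low side, Mettl7a1 read -1.78 against 0.47 to 0.57, and Ro60, whose protein binds small noncoding RNAs, -0.95 against 1.01 to 1.49. ESC-1 also differed in Myc, at 1.96 against 0.62 to 0.66. Its glycolysis and hypoxia list mean was 2.60, against 3.08 to 3.11 in the other ESC and 2.98 to 3.23 in the iPSC. Its array had a mean r of 0.990 with the 42 iPSC of other origins, against 0.987 to 0.989 for the other ESC.

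Leaving out ESC-1 changed which genes passed. Without it, 6 probe sets passed (0.0265%), and 3 of these were Meg3 1436713_s_at, Rian 1428055_at and Rian 1427580_a_at, all lower in the iPSC. The 3 that rose were 1426431_at and 2 genes that the full comparison did not call. Zeb1, a repressor of epithelial genes, read 1.87 in ESC-1, just above the iPSC range of 1.55 to 1.79, but 1.02, 0.97 and 1.02 in ESC-2 to ESC-4. Its difference was 0.50 with ESC-1 (adjusted p = 0.446) and 0.71 without it (adjusted p = 0.0288). The aldo-keto reductase gene Akr1b8 read 0.73 in ESC-1 and 0.04, 0.07 and 0.34 in the other ESC, against 0.70 to 0.91 in the iPSC, and its difference went from 0.54 (adjusted p = 0.250) to 0.69 (adjusted p = 0.0381). The adjusted p of Psrc1 became 0.0801 without ESC-1, at a difference of 0.63.

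iPSC-2 had less effect on the calls. Without it the same 8 probe sets passed (8 of 22626, 0.0354%). Without both clones, 2 passed (0.00884%), Zeb1 as higher (adjusted p = 0.0184) and Meg3 1436713_s_at as lower (adjusted p = 0.0278) in the iPSC. iPSC-2 nevertheless stood apart in single genes, with 177 probe sets 2-fold or more above the mean of the other 5 iPSC and 18 below it. The X-linked gene Xlr4b read 0.41 in iPSC-2 and -3.74 to -2.55 in the other iPSC. The Y-linked translation factor gene Eif2s3y read 2.56 in iPSC-2 and 1.24 in ESC-1, against -1.64 to 0.57 in the other 8 clones. In the 42 iPSC of other origins its median was 2.72 (-1.794 to 4.115), so iPSC-2 was near their usual level and the 8 clones were below it. The receptor gene Aplnr was 3.32 above the mean of the other iPSC, and the neuronal transcription factor gene Neurod1 was lower, at 0.29 against 1.29 to 2.03.

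In Dppa3 and Klhl13, named after their values were seen, ESC-1 read like most iPSC and iPSC-2 like most ESC. Genes with this pattern were not counted. Dppa3 (Stella), which protects methylation marks in the early embryo, read 3.13 in ESC-1 and 4.02, 4.00 and 3.91 in ESC-2 to ESC-4, and 3.98 in iPSC-2 against 3.05 to 3.41 in the other iPSC. The X-linked gene Klhl13, an adaptor of a ubiquitin ligase, showed this in both probe sets. Klhl13 1448269_a_at read 3.09 in ESC-1 and 3.89 in iPSC-2, against 3.89 to 3.99 in the other ESC and 3.04 to 3.45 in the other iPSC. With all clones the differences were -0.40 ± 0.21 for Dppa3 and -0.35 ± 0.19 for this probe set. Without both clones the adjusted p-values were 0.0730 for Dppa3 and 0.0808 for this Klhl13 probe set, so neither passed. The clones left out were those that set the pattern, so these p-values lend it no support.

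A part of chromosome 11 was shifted in iPSC-2. Along each chromosome, genes whose mean value exceeded 0 were put in order and divided into 237 bins of about 25, and each clone was set against the mean of the rest of its group. In iPSC-2 the last 9 bins of chromosome 11, from Mrm1 to Tbcd, all lay above 0.2, at 0.22 to 0.42, while its first 12 bins lay between -0.10 and 0.03. Of the 229 genes in the shifted part, 210 (91.7%) were above the mean of the other 5 iPSC, against 43.8% of genes on the other autosomes. The median deviation there was 0.32 in iPSC-2 and -0.13 to 0.03 in the other 9 clones. No other clone had a bin above 0.2 in this part. ESC-1 had 7 bins past 0.2 in either direction and iPSC-5 had 6, spread over several chromosomes. The shift entered the comparison as a median difference of 0.06 over these 229 genes, which was 0.01 without iPSC-2.

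**Figure D5:**
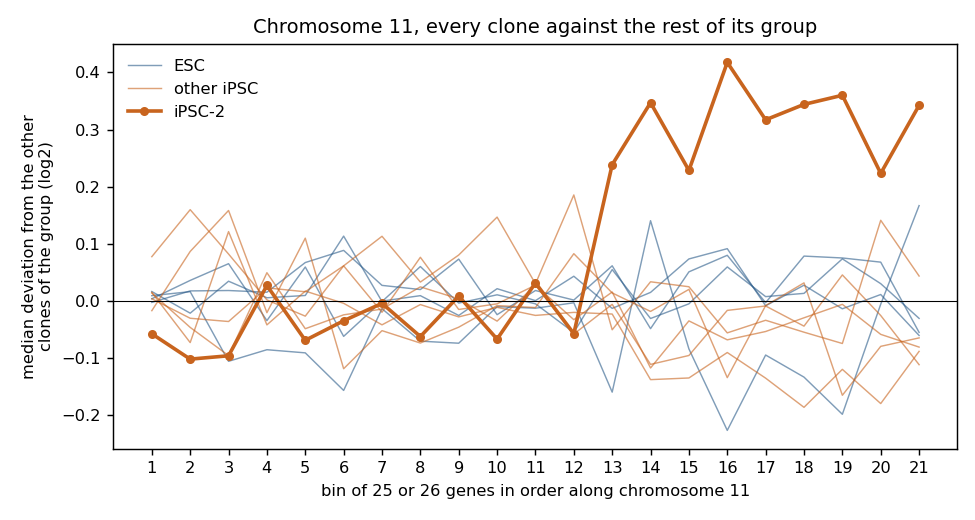
Median difference of each clone from the rest of its group on the log2 scale (vertical axis), in 21 bins of 25 or 26 genes in order along chromosome 11 (horizontal axis). The thick line is iPSC-2, which lies between 0.22 and 0.42 in bins 13 to 21 and near 0 before them.

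The remaining clones had their own outlying genes. In iPSC-4 the lysosomal enzyme gene Gla read -0.97, against -3.89 to -3.18 in the other iPSC. Krt8, a keratin of simple epithelia, followed the sets of like arrays in both groups, at 1.35 in ESC-4 and 2.91 to 3.53 in the other ESC, and at 0.89 to 1.88 in iPSC-4 to iPSC-6 and 3.20 to 3.90 in iPSC-1 to iPSC-3. Lyz2, a lysozyme of macrophages, read -3.92 in ESC-4 and -1.92 to -0.19 in the other ESC, and -3.82 to -2.55 against -1.95 to -1.35 in the same 2 sets of iPSC. The iPSC-minus-ESC differences were -0.26 ± 0.61 for Krt8 and -0.52 ± 0.68 for Lyz2, smaller than their SE.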

How the data were processed

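RNA of each clone was hybridised to 1 Affymetrix array, and the deposited log2 values of the series' value table were used as the authors gave them. The base of 2 and the centring of each array near 0 were inferred from the values. For background correction, summarisation, normalization, scan dates and batches the record is: not given in the sources used here. For arrays, the number of clones (4 against 6) limits the precision. Probe sets were named through the platform's gene identifiers and symbols of GRCm38.p6. ESC and iPSC were compared with limma 3.58.1 under R 4.3.3 (a linear model per probe set, then eBayes, 2-sided, 8 residual degrees of freedom, Benjamini-Hochberg adjustment over 22626 probe sets). The code was tested on simulated data. Figures were drawn with Python and matplotlib.

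Members and lists were chosen with earlier results of these data known, so no list was tested: those the text describes are given by counts and, for most, medians beside those of all probe sets. Listed genes were matched by symbol, or by synonym where the listed name was no current symbol of another gene. Text genes were probe sets past the threshold, up to 15 in each direction filled by the smallest p with separate groups, 5 unnamed ones in each direction, the Dlk1-Dio3 and cassette genes with Nanog, up to 4 members per list, genes called without ESC-1 or iPSC-2, the 6 farthest per clone in each direction, and genes with 3 or more probe sets all separate. Polk, Bbc3, Gadd45a, Dppa3, Klhl13, Rnf157, 1421514_a_at, the second Brdt probe set and the genes with 2 separate probe sets were named after their values were seen. Alternatives were other normalizations, filters, gene summaries, eBayes settings, array weights, 1 fit over all groups, a replicate block, leaving out clones and, chosen after seeing the data, the sets of like arrays as a block without ESC-1. Promoter windows are RefSeq's.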

Additional observations from a re-analysis of the deposited data

Results flagged for a closer look

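Across the probe sets named in the text, 12 of 178 groups tested held 1 clone whose gap to its nearest neighbour took up most of the range of its group. Chance marks about 1 group in 20, and some of these probe sets were named because 1 clone stood apart.

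ESC-1 was that clone in 9 of the 12. It read high for Myc (1.96 against 0.62 to 0.66 in the other ESC), Impact (4.17 against 3.86 to 3.89), Zeb1 (1.87 against 0.97 to 1.02), Xlr4b (-3.28 against -3.74 to -3.71), Mmp3 (1.19 against -1.90 to -1.83) and Tfpi2 (-0.089 against -3.12 to -2.80). It read low for Dppa3 (3.13 against 3.91 to 4.02), Klhl13 1448269_a_at (3.09 against 3.89 to 3.99) and Mettl7a1 (-1.78 against 0.47 to 0.57). In the iPSC, Xlr4b stood out in iPSC-2 at 0.41 (others -3.74 to -2.55), Gla in iPSC-4 at -0.97 (others -3.89 to -3.18), and Sall4 in iPSC-5 at 0.10 (others -0.39 to -0.27).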

How the results depend on the processing

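The 8 probe sets called became 13 without those under the 40th percentile of mean signal (13576 tested), 0 with 1 probe set per gene (smallest adjusted p 0.0671; 1007 at an unadjusted p under 0.05), 307 in 1 fit over all groups, 815 with array weights and 76 without ESC-1 with the sets of like arrays as a block, an alternative chosen after seeing the data. Leaving out 1 clone at a time gave 0 to 12 calls and 1478 to 2812 probe sets at an unadjusted p under 0.05. Both clones together left 2. All 7 Meg3 and Rian differences, where tested, were below 0 in all 21 alternatives, between -3.35 and -0.97. The replicate block on clone numbers gave 26 calls. It has no stated meaning: the deviations of same-numbered ESC and iPSC correlated at 0.04, 0.14, 0.34 and 0.30, and ESC-4 correlated best with iPSC-6 (0.57). Directions that turned were those of uncalled genes. Dlk1 became 0.128 with array weights, 0.07 with the replicate block and 0.12 with the like-array block, and ran from -0.373 (without ESC-4) to 0.0367 (without ESC-1). Myc became 0.0610 with the like-array block and ran from -0.4002 (without ESC-4) to 0.0488 (without ESC-1). Klf4 1417394_at became 0.000282 with array weights and 0.0075 with the replicate block, and ran from -0.108 (without ESC-1) to 0.0228 (without iPSC-4), above 0 also without ESC-4 or iPSC-5. The causes were not tested.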
